A study of Mus musculus with 16 samples.

Results

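Integrin and laminin chains were taken from the expression table by gene symbol, as every gene named for an integrin alpha or beta chain or for a laminin alpha, beta or gamma chain. The symbols gave 38 rows of 49315 genes and 37 distinct chains, namely 18 integrin alpha chains, 8 integrin beta chains and 11 laminin chains. The symbol Itgam stood on 2 rows, and the second of these (ENSMUSG00000108596, named Gm49368 in the GENCODE annotation) overlaps the main Itgam gene on the same strand. RNA was sequenced from intervertebral discs of 16 mice, with 4 coccygeal discs of the tail pooled from each mouse into 1 library after the cartilage endplate was trimmed away. Wild-type mice gave 3 intact and 4 injured libraries, and mice of the Adam8EQ genotype, called mutants below, gave 4 intact and 5 injured libraries. The series title names DBA as the comparison strain, and the labels describe neither the Adam8EQ allele further nor the form of injury, the time after it, or the age and sex of the mice. Each library is a separate mouse. The comparisons ask how disc injury changed these chains in each genotype and whether the genotypes differed.

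Integrins are cell surface receptors made of an alpha and a beta chain. Chains that pair with Itgb1 bind collagens, laminins or fibronectin and anchor cells to their matrix, whereas chains that pair with Itgb2 or Itgb7 are made by white blood cells and bind counter-receptors on other cells. Laminins are cross-shaped basement membrane proteins of an alpha, a beta and a gamma chain, and in the disc they lie around nucleus pulposus cells, which bind them through integrins.

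Values are TPM, a length-scaled share of all transcripts in a library, so that levels can be set side by side between genes. The reads implied by the smallest steps of the table ranged from 10196642 to 24834915 per library. A change is the difference between group means of log2(TPM + 1), given with its standard error (SE), and understates the fold of chains with low TPM. A chain was called changed where the limma p-value, adjusted over 24188 tested genes by the Benjamini-Hochberg method, was under 0.05. The test covered 33 of the 38 rows, those with 1 TPM or more in 3 or more mice. Itgad, Itga8, Itgb6, Lamc3 and the second Itgam row fell short of that level and carry no test.

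Libraries differed in ways that touch the results below. The summed TPM of 3 pan-leukocyte markers (Ptprc, Coro1a, Laptm5) was 3.83 to 18.5 in intact discs, 17.6 and 33.4 in injured wild-type mice 1 and 2, 241.4 and 136.8 in injured wild-type mice 3 and 4, and 60.8 to 351.8 in injured mutants. All 3 rose with injury in mutants, as did 6 of 7 monocyte and macrophage markers and 4 of 7 neutrophil markers. The sum of 6 markers of notochordal nucleus pulposus cells (Krt8, Krt18, Krt19, T, Cd24a, Car3) was 7024 in intact mutant mouse 3, 13390 to 15820 in the other intact mice, 3047 to 11130 in injured wild-type mice and 581.5 to 7023 in injured mutants, and 4 of the 6 fell with injury in mutants. Of all tested genes, 13.1% rose and 17.7% fell with injury in mutants. In whole tissue, fewer cells of a type and less RNA per cell cannot be told apart. Library names divide the mutants into a set that begins with A8 (injured mice 1 and 2, intact mice 1 and 2) and a set that begins with M (injured mice 3 to 5, intact mice 3 and 4), while every wild-type name begins with D.

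With injury in mutants, 20 of the 33 tested chains changed: 11 rose and 9 fell. Among all tested genes, 30.8% were called in this comparison, 13.1% higher and 17.7% lower. In wild-type mice, 0 chains passed limma's adjusted threshold, where 0.116% of all genes did; 12 chains had an unadjusted p under 0.05, as did 4155 genes in all. Over all 38 rows the median change was 0.20 in mutants and 0.19 in wild-type mice, against -0.08 and 0.01 over all tested genes. Injured and intact mice did not overlap for 17 of 33 chains in mutants (27.2% of all tested genes) and for 16 of 33 in wild-type mice (15.6%). Leukocyte chains made up 6 of the 11 that rose, and Itga5, Itgav, Lamb1 and Lamc1 were among the others. The 9 that fell were the collagen-binding Itga1, Itga10 and Itga11, the laminin-binding Itga7, Itgb5, and the laminin chains Lama3, Lama4, Lamb2 and Lamb3. All 20 had the same direction within the A8-named and within the M-named mutants, which is a description only, since they were called on these same libraries. A fit with the M-named mutants alone, 2 intact against 3 injured, called only Lamb2 of the 33 chains (change -0.97, adjusted p = 0.0351). Over all 24188 tested genes that fit called 725.

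**Figure D1:**
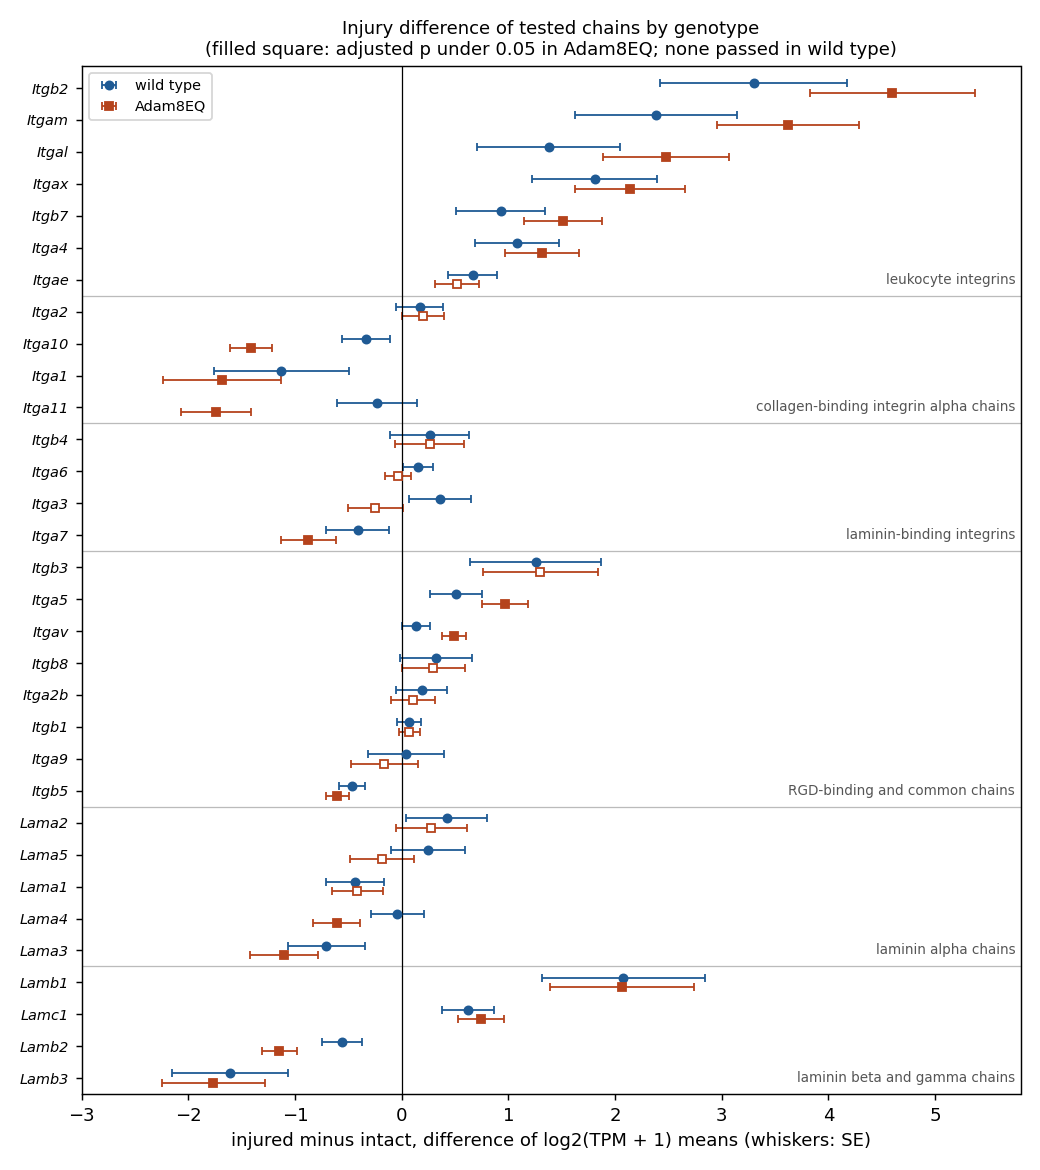
Injury difference (injured minus intact mean of log2(TPM + 1), horizontal axis) of tested chains in wild-type mice (blue circles) and Adam8EQ mutants (red squares), with whiskers of 1 SE; filled squares mark chains called in mutants. The leukocyte chains lie to the right in both genotypes, led by Itgb2 at 4.60 in mutants, and Itga10 and Itga11 lie further left in mutants than in wild-type mice.

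Most leukocyte integrin chains rose in injured mutants. Of 8 chains, 7 were tested and 6 rose with injury in mutants: Itgb2, Itgam, Itgal, Itgax, Itgb7 and Itga4. The seventh, Itgae, changed by 0.52 (adjusted p = 0.0654). Itgb2 is the shared beta chain of the leukocyte integrins, Itgal its alpha partner in LFA-1, Itgam its partner in Mac-1 on neutrophils and macrophages, and Itgax its partner on dendritic cells and some macrophages. Itgal (7:127296260-127335138 on GRCm38), Itgam (7:128062640-128118491), Itgax (7:128129547-128150657) and Itgad (7:128154376-128223816) lie on the same strand of chromosome 7, the last 3 next to one another. Itgb7 pairs with Itga4 or Itgae.

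The RefSeq promoter windows (250 bases before to 50 after a start site, GRCm38.p6) covered 23 of the 37 chains in 26 windows. They are shown for 3 leukocyte chains that rose, Itgam and Itgax as neighbours and Itgb7 from chromosome 15, and for Itga10, which fell. Capitals mark GAGGAA or its reverse complement TTCCTC, the core letters bound by PU.1, an ETS factor of myeloid cells.
Itgam, chr7:128062390-128062689, plus strand: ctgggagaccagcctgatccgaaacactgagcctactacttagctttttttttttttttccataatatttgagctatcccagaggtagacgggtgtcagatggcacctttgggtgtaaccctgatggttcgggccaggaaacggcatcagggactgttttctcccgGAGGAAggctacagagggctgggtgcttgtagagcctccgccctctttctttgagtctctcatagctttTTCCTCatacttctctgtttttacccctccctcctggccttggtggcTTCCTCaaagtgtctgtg
Itgax, chr7:128129300-128129599, plus strand: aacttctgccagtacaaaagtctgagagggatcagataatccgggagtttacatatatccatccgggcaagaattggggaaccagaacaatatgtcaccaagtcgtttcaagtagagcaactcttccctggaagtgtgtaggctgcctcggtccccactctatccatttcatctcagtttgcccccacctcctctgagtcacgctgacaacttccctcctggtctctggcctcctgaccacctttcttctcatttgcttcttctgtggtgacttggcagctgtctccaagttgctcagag
Itgb7, chr15:102231886-102232185, minus strand: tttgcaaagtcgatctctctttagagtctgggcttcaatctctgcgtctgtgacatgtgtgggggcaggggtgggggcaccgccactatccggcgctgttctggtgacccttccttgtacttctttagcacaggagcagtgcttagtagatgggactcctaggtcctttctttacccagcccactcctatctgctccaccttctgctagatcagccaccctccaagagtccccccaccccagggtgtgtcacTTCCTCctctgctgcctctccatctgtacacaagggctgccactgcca
Itga10, chr3:96645334-96645633, plus strand: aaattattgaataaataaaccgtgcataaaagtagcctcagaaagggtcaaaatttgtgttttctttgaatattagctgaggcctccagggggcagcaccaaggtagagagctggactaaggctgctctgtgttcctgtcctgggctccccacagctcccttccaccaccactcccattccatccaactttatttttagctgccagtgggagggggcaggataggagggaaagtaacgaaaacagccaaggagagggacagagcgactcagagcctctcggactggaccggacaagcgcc
The Itgam window held the letters 3 times, beginning 84 and 15 bases before the start site and at base 33 after it. The Itgb7 window held them 1 time, and the Itgax and Itga10 windows 0 times. Over 32851 promoter windows of the same length 28.3% held them, as did 14 of the 26 windows of these chains and 2 of the 4 windows of leukocyte chains. Among the other chains that fell, a window of Itga11, Lamb2 and Lamb3 each held them, and those of Itga1 and Itgb5 did not. A match of these letters is a description of the sequence and does not show that a factor binds there.

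Itgb2 stood at 3.003, 2.68 and 2.16 TPM in intact wild-type mice 1 to 3, and at 3.58, 1.34, 6.197 and 1.42 TPM in intact mutants 1 to 4. It reached 7.87, 14.2, 131.1 and 87.3 TPM in injured wild-type mice 1 to 4, and 97.8, 313.8, 66.4, 103.4 and 25.3 TPM in injured mutants 1 to 5. All 9 injured mice lay above all 7 intact mice, and injured wild-type mice 1 and 2 lay below every injured mutant. The change was 4.60 ± 0.77 (SE) in mutants (adjusted p = 0.00115) and 3.30 ± 0.88 in wild-type mice (adjusted p = 0.132), where it passed only without injured wild-type mouse 1 (3.97, adjusted p = 0.0389). In that fit 452 genes in all passed in wild-type mice, against 28 in the main fit. Itgam was 0.743, 0.876 and 0.695 TPM in intact wild-type mice and 0.725, 0.250, 1.35 and 0.308 TPM in intact mutants. With injury it was 2.04, 3.02, 27.5 and 19.9 TPM in wild-type mice and 23.1, 56.4, 16.1, 20.9 and 4.87 TPM in mutants. The order of the injured mice was nearly that of Itgb2, with mutant mouse 2 highest and wild-type mouse 1 lowest for both chains. Its change was 3.62 ± 0.67 in mutants (adjusted p = 0.00182) and 2.38 ± 0.76 in wild-type mice (adjusted p = 0.169). The second Itgam row stayed at or below 0.796 TPM, and how the authors divided reads between the overlapping rows is not given in the sources used here.

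Itgal was far lower. It was 0.465, 0.191 and 0.177 TPM in intact wild-type mice, and in intact mutants it was listed at 0 in mice 1 and 2 and at 0.135 and 0.142 TPM in mice 3 and 4. After injury the levels were 0.439, 1.30, 8.80 and 2.68 TPM in wild-type mice and 4.94, 21.4, 2.61, 6.30 and 1.10 TPM in mutants. Injured wild-type mouse 1 lay within the intact range, so that the wild-type groups overlapped, while the mutant groups did not. Its change was 2.47 ± 0.59 in mutants (adjusted p = 0.00693) and 1.38 ± 0.67 in wild-type mice (adjusted p = 0.308). Itgax was listed at 0 in intact wild-type mice 2 and 3 and was 0.141 TPM in mouse 1; in intact mutants it was 0.927, 0.0655, 0.0615 and 0.129 TPM. In injured discs it stood at 1.33, 0.848, 6.21 and 4.77 TPM in wild-type mice and 2.70, 11.3, 1.98, 12.0 and 1.96 TPM in mutants, and the groups did not overlap within either genotype. Here mutant mouse 4 was the highest and not mutant mouse 2. The change was 2.14 ± 0.52 in mutants (adjusted p = 0.00729) and 1.81 ± 0.59 in wild-type mice (adjusted p = 0.174). Intact libraries rest on few reads for these alpha chains: the implied reads were 0 to 9 for Itgal and 0 to 11 for Itgax.

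Itgb7 was the most abundant leukocyte chain of intact discs, at 4.58, 6.53 and 5.23 TPM in wild-type mice and 4.28, 5.27, 10.9 and 5.31 TPM in mutants. Injury values were 6.54, 6.75, 18.3 and 18.5 TPM in wild-type mice and 15.2, 39.7, 17.2, 18.7 and 13.1 TPM in mutants. Injured wild-type mice 1 and 2 exceeded the highest intact wild-type mouse only narrowly, and intact mutant mouse 3 stood above both. The change was 1.51 ± 0.37 in mutants (adjusted p = 0.00734) and 0.93 ± 0.42 in wild-type mice (adjusted p = 0.274). Itga4, the partner of Itgb7 or Itgb1 that binds Vcam1, ranged from 1.82 to 3.27 TPM in intact mice and from 3.28 to 12.0 TPM in injured mice, with 1.31 ± 0.34 in mutants (adjusted p = 0.0109) and 1.08 ± 0.39 in wild-type mice (adjusted p = 0.207). Exons of Itga4 overlap those of Cerkl on the opposite strand, and whether the authors' counting used strand is not given in the sources used here. Itgae ranged from 0.177 to 0.839 TPM in intact mice and from 0.706 to 1.97 TPM in injured mice. Its call in mutants passed without intact mutant mouse 3 (0.66, adjusted p = 0.0327) and without injured wild-type mouse 3, whose removal changes only the pooled spread (adjusted p = 0.0493). Itgad did not exceed 0.330 TPM in any mouse.

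Ratios within a mouse show how evenly Itgb2 moved with Itgam, Itgal, Itgax and Ptprc. The difference between injured and intact mice was smaller for Itgb7 and Itga4 than for Itgb2. Itgb7 averaged 6.01 TPM in intact and 17.1 TPM in injured mice, and Itga4 averaged 2.32 and 7.275 TPM. Itgam was 0.187 to 0.327 times Itgb2 in intact mice and 0.180 to 0.259 times Itgb2 in injured mice, ranges that overlap although Itgb2 itself averaged 2.91 ± 1.66 TPM (SD) in the 7 intact and 94.1 ± 93.0 TPM in the 9 injured mice. Itgb2 was 3.23 to 7.85 times Ptprc, the pan-leukocyte phosphatase CD45, in intact mice and 3.71 to 7.73 times Ptprc in injured mice. Ratios in intact mice rest on few reads, with 4 to 23 implied reads for Itgam and 13 to 63.9 for Itgb2. The scarcer alpha chains were less even: Itgax was 0 to 0.259 times Itgb2 in intact and 0.0275 to 0.169 times in injured mice, and Itgal was 0 to 0.155 and 0.0307 to 0.0913 times Itgb2. The part of leukocyte number in these changes was not tested. Of 7 T, NK and B cell markers only 2 were tested and neither passed in mutants, and Cd3g, Cd8a, Nkg7 and Ms4a1 stayed below 1 TPM in every library.

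**Figure D2:**
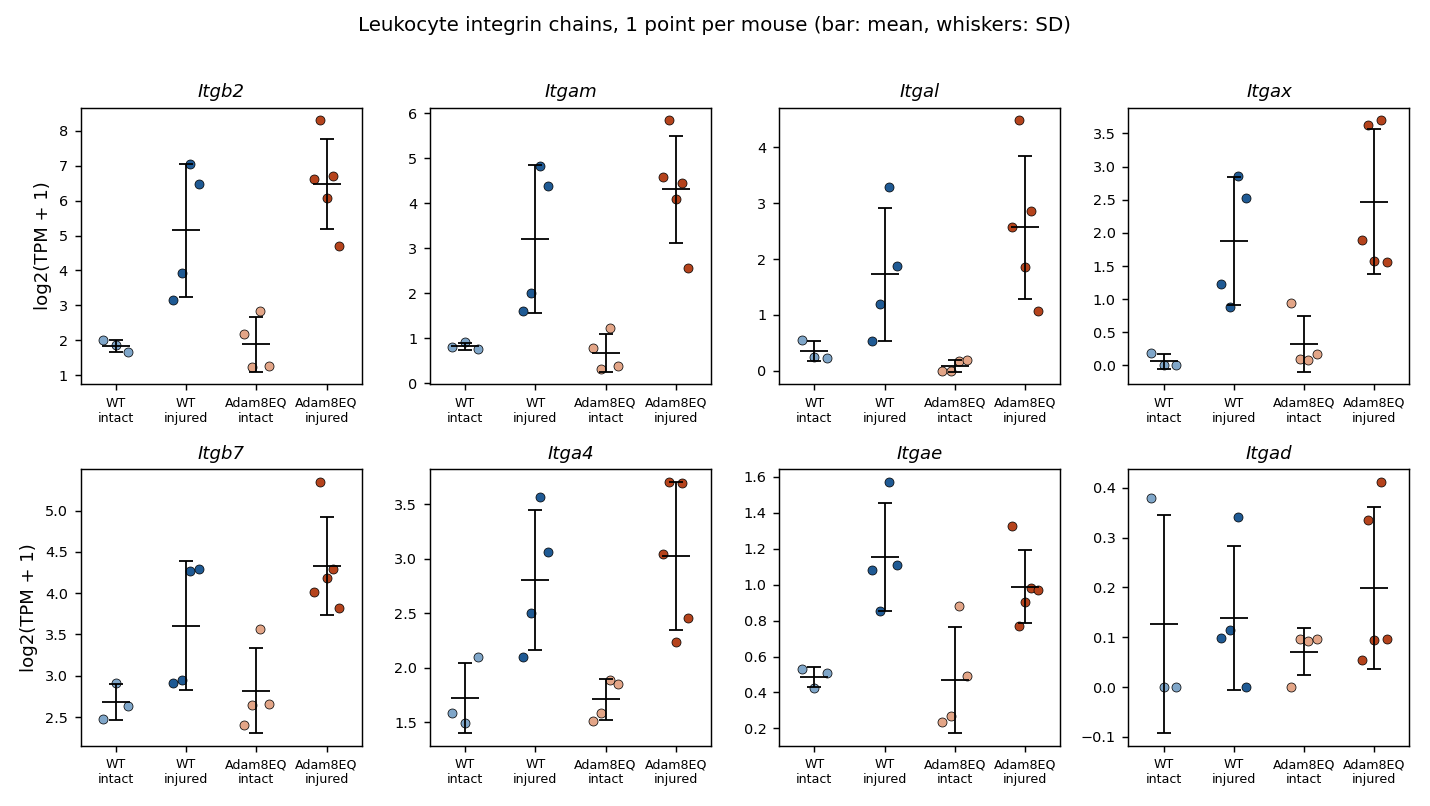
Level of each leukocyte integrin chain as log2(TPM + 1) (vertical axis) in the 4 groups, with 1 point per mouse, the mean as a bar and the SD as whiskers. Injured mice lie above intact mice of their genotype for Itgb2, Itgam and Itgax, and for Itgb2 and Itgam injured wild-type mice 1 and 2 lie well below mice 3 and 4.

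The collagen-binding alpha chains went the other way. All 4 were tested, and Itga1, Itga10 and Itga11 fell with injury in mutants while Itga2 did not pass (change 0.20, adjusted p = 0.471). These chains pair with Itgb1: Itga1 is a receptor with a preference for network collagens, Itga10 is the collagen receptor of chondrocytes, and Itga11 is a receptor for fibrillar collagens on fibroblasts. Itga10 (3:96645584-96664519, promoter above) was 95.6, 100.7 and 131.4 TPM in intact wild-type mice and 154.7, 133.0, 110.4 and 128.6 TPM in intact mutants. Injured discs held 101.0, 111.8, 48.9 and 95.9 TPM in wild-type mice, and 42.7, 47.4, 45.2, 51.5 and 56.8 TPM in mutants. Injured mutants held a narrow range below every intact mouse, whereas 3 of 4 injured wild-type mice stayed within the intact wild-type range, barely so for mouse 4. The change was -1.41 ± 0.20 in mutants (adjusted p = 0.000482) and -0.34 ± 0.23 in wild-type mice (adjusted p = 0.442).

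Itga11 (9:62677826-62783982) showed the same contrast at lower levels. It was 17.3, 22.1 and 13.1 TPM in intact wild-type mice and 27.8, 23.0, 17.5 and 17.5 TPM in intact mutants. After injury it measured 13.0, 8.73, 23.1 and 16.2 TPM in wild-type mice and 2.93, 7.85, 3.04, 6.90 and 10.3 TPM in mutants. The wild-type groups overlapped, with injured mouse 3 above all intact wild-type mice, and the mutant groups did not overlap. The change was -1.74 ± 0.33 in mutants (adjusted p = 0.0021) and -0.23 ± 0.38 in wild-type mice (adjusted p = 0.777). Itga1 (13:114953096-115101964) was steady in intact wild-type mice, at 93.2, 90.4 and 96.5 TPM, but divided in intact mutants, at 99.1, 104.0, 24.0 and 57.3 TPM. With injury it was 59.2, 56.0, 28.6 and 33.2 TPM in wild-type mice and 6.75, 31.4, 6.34, 43.4 and 33.4 TPM in mutants. The wild-type groups did not overlap, while intact mutant mouse 3 lay below 3 of the 5 injured mutants. The change was -1.68 ± 0.55 in mutants (adjusted p = 0.0323) and -1.13 ± 0.63 in wild-type mice (adjusted p = 0.362). The call for Itga1 was lost without any of injured mutants 1 (adjusted p = 0.0776) or 3 (0.0768) or intact mutants 1 (0.0940), 2 (0.1003) or 4 (0.0606), and with only the groups compared (0.0831). Within the A8-named mutants the difference for Itga1 was -2.69, and within the M-named mutants it was -0.77 with overlapping groups. Exons of Itga1 and Itga10 overlap protein-coding models on the same strand (Gm49395 and Gm42957), so reads could have been divided between them. Beside these falls stand those of the notochordal markers given above and of Comp and Tnmd among 6 cartilage and annulus markers; their part was not tested.

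The chains of receptors that bind the RGD motif of fibronectin and related ligands were grouped with the common beta chain Itgb1 and with Itga9, whose receptor does not depend on that motif, and moved in both directions. Of 10 chains 8 were tested, with Itga5 and Itgav higher and Itgb5 lower in injured mutants. Itga5, the alpha chain of the main fibronectin receptor, was 177.8, 198.0 and 135.0 TPM in intact wild-type mice and 229.7, 196.4, 266.2 and 204.2 TPM in intact mutants. After injury the levels were 206.5, 201.1, 327.6 and 245.1 TPM in wild-type mice and 382.9, 307.6, 703.6, 388.7 and 493.1 TPM in mutants. Groups did not overlap within either genotype, and 4 of 5 injured mutants exceeded every injured wild-type mouse. The change was 0.97 ± 0.22 in mutants (adjusted p = 0.00468) and 0.51 ± 0.24 in wild-type mice (adjusted p = 0.298). Itgav, which pairs with several beta chains to bind vitronectin and latent TGF-beta, moved less: it was 55.3 to 76.7 TPM in intact mice, 63.1 to 82.8 TPM in injured wild-type mice and 75.6 to 102.3 TPM in injured mutants. Its change was 0.49 ± 0.11 in mutants (adjusted p = 0.00629) and 0.14 ± 0.13 in wild-type mice (adjusted p = 0.597).

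Itgb5, a partner of Itgav, was the second most abundant chain of intact discs and fell. It was 226.0, 248.9 and 235.6 TPM in intact wild-type mice and 228.4, 225.8, 179.9 and 230.3 TPM in intact mutants. In injured discs it stood at 172.8, 165.9, 166.4 and 181.2 TPM in wild-type mice and 125.5, 161.3, 114.6, 157.8 and 152.6 TPM in mutants. Groups did not overlap within either genotype, nor did the injured mutants overlap the injured wild-type mice. The change was -0.60 ± 0.11 in mutants (adjusted p = 0.00167) and -0.46 ± 0.12 in wild-type mice (adjusted p = 0.135). Itgb5 was 3.07 to 4.18 times Itgav in intact mice, 2.01 to 2.74 times in injured wild-type mice and 1.19 to 2.09 times in injured mutants. Itgb3, the beta chain of platelets and osteoclasts that also pairs with Itgav, was 1.38, 0.852 and 0.526 TPM in intact wild-type mice and 1.65, 1.12, 1.20 and 0.735 TPM in intact mutants. Injury values were 0.922, 1.38, 12.7 and 5.59 TPM in wild-type mice and 8.04, 9.57, 1.25, 3.93 and 2.92 TPM in mutants. Only injured wild-type mice 3 and 4 and injured mutants 1, 2, 4 and 5 lay above the intact range of their genotype, and Itgb3 did not pass in mutants (1.30 ± 0.54, adjusted p = 0.0804). It passed there without injured mutant mouse 3 (1.61, adjusted p = 0.0385) and without injured wild-type mouse 3, through the pooled spread (adjusted p = 0.0381). Its platelet partner Itga2b showed 4.98 to 8.78 TPM in intact and 5.53 to 10.6 TPM in injured mice. Of 6 platelet markers 4 were tested, and only Pf4 and Ppbp rose in mutants. Gp6 stayed below 1 TPM throughout, and the part of platelets was not tested.

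Itgb1, the common partner, was the most abundant chain in intact discs. It was 320.5, 304.2 and 365.4 TPM in intact wild-type mice, 304.7, 329.5, 274.2 and 316.4 TPM in intact mutants, 306.9, 344.4, 390.7 and 345.4 TPM in injured wild-type mice, and 367.9, 318.5, 282.3, 335.0 and 308.4 TPM in injured mutants. All groups overlapped, and the change was 0.07 ± 0.10 in mutants (adjusted p = 0.622). Itga5 was 0.369 to 0.971 times Itgb1 in intact mice, 0.584 to 0.839 times in injured wild-type mice and 0.966 to 2.49 times in injured mutants. Itgb8 (4.60 to 13.7 TPM) and Itga9 (2.67 to 9.91 TPM) did not pass, and Itga8 and Itgb6 never exceeded 1.31 and 0.859 TPM.

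**Figure D3:**
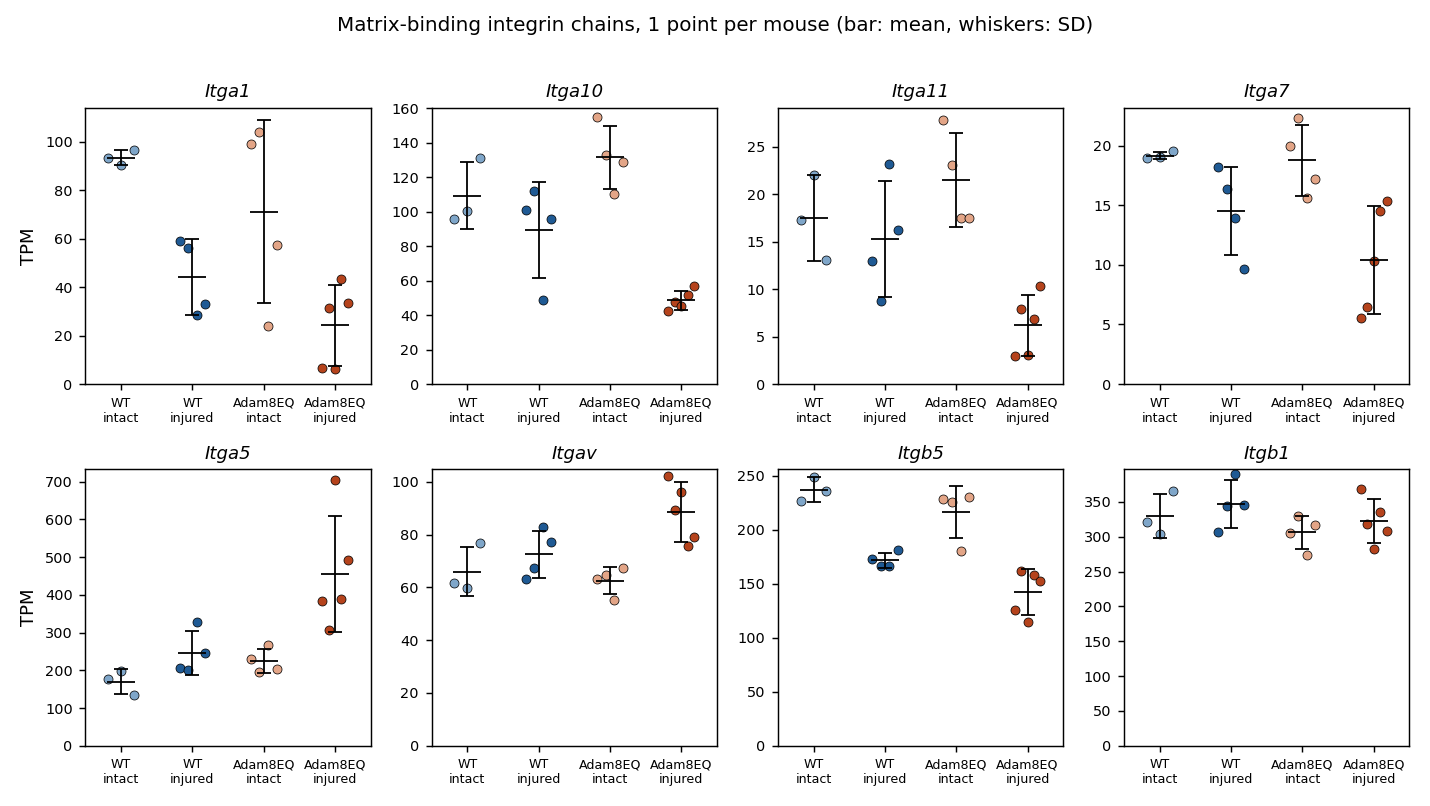
TPM (vertical axis, from 0) of 8 matrix-binding integrin chains in the 4 groups, with 1 point per mouse, the mean as a bar and the SD as whiskers. Itga10 in injured mutants lies between 42.7 and 56.8 TPM, below every intact mouse, and Itgb1 overlaps across all groups.

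As shares of the summed integrin alpha chain TPM, Itga5 took 31.1 ± 5.53% (SD, n = 3) in intact wild-type mice, 37.2 ± 6.12% (n = 4) in intact mutants, 41.3 ± 5.01% (n = 4) in injured wild-type mice and 59.5 ± 9.83% (n = 5) in injured mutants. The collagen-binding chains took 40.5 ± 3.60%, 37.0 ± 7.74%, 26.4 ± 8.27% and 11.1 ± 3.81% in the same order. The leukocyte alpha chains took 0.427 to 0.894% in intact mice, 1.53 to 8.21% in injured wild-type mice and 1.73 to 15.5% in injured mutants. In injured mutants Itga5 thus exceeded all other alpha chains together in 4 of 5 mice, and it stood at 46.9% in mouse 2, where the leukocyte share was highest. Shares sum to a fixed total, so that a rise of 1 chain lowers the share of the rest.

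**Figure D4:**
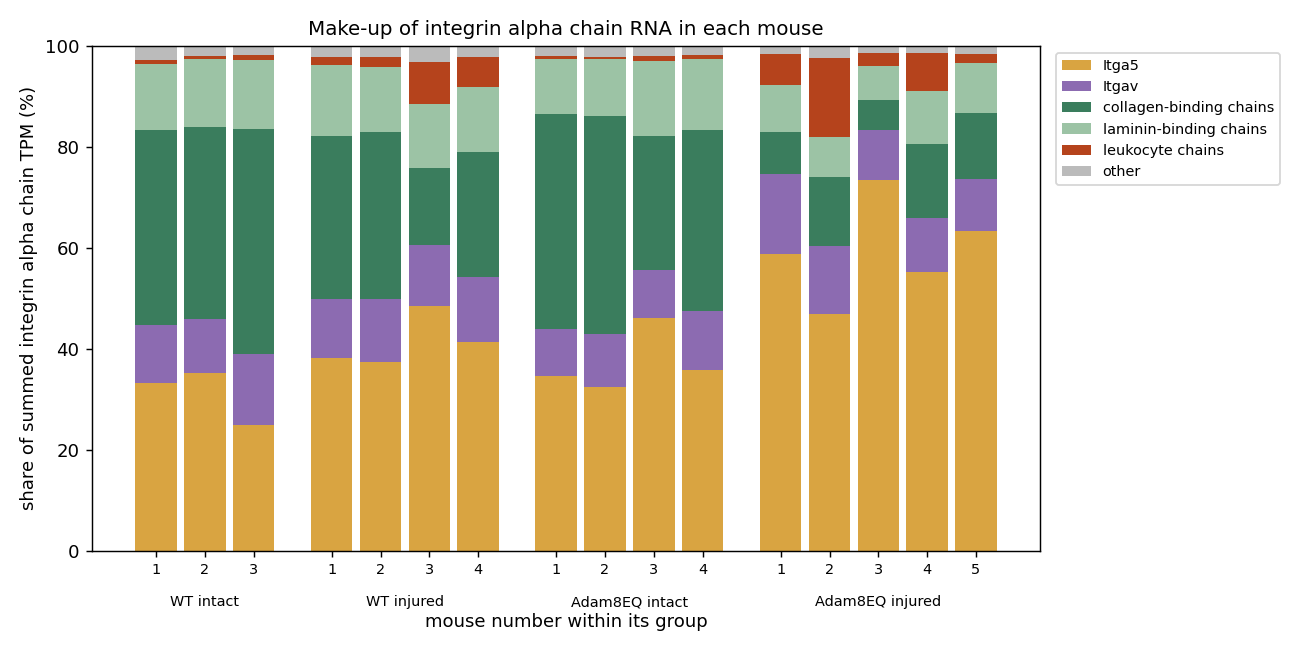
Share of the summed TPM of all integrin alpha chains (vertical axis, %) taken by Itga5, Itgav and the named groups of chains, with 1 bar per mouse. The collagen-binding share lies between 26.6% and 44.7% in intact mice and between 5.87% and 14.7% in injured mutants.

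Among the laminin-binding integrin chains, 4 of 4 were tested and Itga7 fell in mutants. Itga7, a laminin receptor best known from muscle, was 19.0, 19.0 and 19.5 TPM in intact wild-type mice and 19.96, 22.3, 15.6 and 17.2 TPM in intact mutants. Injured discs held 18.2, 16.3, 13.9 and 9.68 TPM in wild-type mice and 5.51, 6.45, 10.3, 14.5 and 15.4 TPM in mutants. Groups did not overlap within either genotype. The change was -0.88 ± 0.26 in mutants (adjusted p = 0.0198) and -0.41 ± 0.30 in wild-type mice (adjusted p = 0.478); without intact mutant mouse 1 or 2 the mutant call was lost (adjusted p = 0.0501 and 0.0626). The sum of 5 skeletal muscle markers was 613.5, 287.6 and 150.3 TPM in intact wild-type mice 1 to 3, where Itga7 hardly differed. It was 91.6 to 113.3 TPM in intact mutants and 170.8, 91.4, 59.8 and 103.7 TPM in injured wild-type mice 1 to 4. Injured mutants 1 to 5 held 55.4, 15.7, 102.7, 475.5 and 214.1 TPM, and mice 4 and 5 were also the highest of these mutants for Itga7. Of these markers 4 were tested and none passed in mutants, Myh4 stayed below 1 TPM, and the part of muscle was not tested. Exons of Itga7 overlap those of Mettl7b on the opposite strand. Itga6, the most abundant laminin-binding chain, was 43.3, 46.5 and 48.5 TPM in intact wild-type mice, 42.8, 39.4, 56.4 and 52.0 TPM in intact mutants, 48.9, 46.3, 58.1 and 52.7 TPM in injured wild-type mice, and 49.7, 37.3, 43.5, 52.3 and 49.6 TPM in injured mutants. These ranges overlap, with a change of -0.03 ± 0.12 in mutants (adjusted p = 0.875) whose sign differed between analysis settings.

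The other laminin-binding chains, Itgb4 and Itga3, did not pass in either genotype. Itgb4, the partner of Itga6 in hemidesmosomes, was 6.39, 4.93 and 3.43 TPM in intact wild-type mice, 2.88, 3.32, 6.28 and 4.06 TPM in intact mutants, 3.56, 4.12, 15.0 and 5.22 TPM in injured wild-type mice, and 6.199, 4.11, 4.102, 5.01 and 5.85 TPM in injured mutants. Only injured wild-type mouse 3 stood clear of the other 15 mice, and the change in mutants was 0.27 ± 0.32 (adjusted p = 0.569). Itga3, which pairs with Itgb1 on epithelial and neural cells, was 7.97, 9.30 and 6.73 TPM in intact wild-type mice, 9.78, 7.16, 13.7 and 11.4 TPM in intact mutants, 9.08, 6.81, 13.8 and 13.9 TPM in injured wild-type mice, and 4.93, 8.60, 10.8, 7.76 and 12.0 TPM in injured mutants. All groups overlapped, with -0.25 ± 0.26 in mutants (adjusted p = 0.498) and 0.36 ± 0.29 in wild-type mice (adjusted p = 0.529).

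The laminin beta and gamma chains moved in both directions with injury. In mutants Lamb1 and Lamc1 rose, and Lamb2 and Lamb3 fell. Lamb2 (9:108479736-108490530), a beta chain of muscle, vessel and kidney basement membranes, was the main laminin chain of intact discs, at 187.3, 217.1 and 180.4 TPM in wild-type mice and 195.3, 189.5, 207.5 and 195.0 TPM in mutants. After injury it measured 151.4, 137.9, 106.9 and 134.5 TPM in wild-type mice and 69.3, 73.4, 75.8, 119.2 and 117.4 TPM in mutants. All 9 injured mice lay below all 7 intact mice. The change was -1.14 ± 0.16 in mutants (adjusted p = 0.000516) and -0.56 ± 0.18 in wild-type mice (adjusted p = 0.177).

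Lamb1 (12:31265234-31329644), the beta chain of most embryonic and vessel laminins, was near 1 TPM in intact discs: 1.44, 0.570 and 1.02 TPM in wild-type mice and 1.43, 0.666, 1.13 and 0.437 TPM in mutants. With injury it was 1.49, 3.40, 35.3 and 11.2 TPM in wild-type mice and 10.6, 22.9, 2.28, 5.94 and 3.73 TPM in mutants. Every injured mouse exceeded every intact mouse, by little in wild-type mouse 1. The change was 2.07 ± 0.67 in mutants (adjusted p = 0.0307) and 2.08 ± 0.77 in wild-type mice (adjusted p = 0.212). The mutant call was lost without injured mutant 1 (adjusted p = 0.0657) or 2 (0.0708) or intact mutant 2 (0.0713), 3 (0.0505) or 4 (0.0763). Lamb2 was 130 to 446 times Lamb1 in intact mice and 3.03 to 102 times Lamb1 in injured mice. The sum of 5 endothelial markers was highest in the injured wild-type mouse 3 that also had the highest Lamb1. It was 173.3 TPM there against 2.12 to 15.4 TPM in intact mice. Injured mutants held 9.38 to 61.7 TPM, with mouse 3 lowest and mouse 2 highest for both this sum and Lamb1. Injured mutant mouse 1, at 12.1 TPM, lay below intact wild-type mouse 1, although its Lamb1 was 10.6 TPM against 1.44 TPM. Injured mutant mouse 5 held 25.4 TPM with Lamb1 at only 3.73 TPM. None of the 5 markers was called in mutants, and the part of endothelial cells was not tested.

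Lamc1, the gamma chain of most laminins, was 60.2 to 72.8 TPM in intact mice. After injury the levels were 73.6, 71.7, 189.9 and 112.8 TPM in wild-type mice and 125.6, 144.0, 112.7, 107.1 and 110.3 TPM in mutants. Groups did not overlap within either genotype. The change was 0.75 ± 0.22 in mutants (adjusted p = 0.0177) and 0.62 ± 0.25 in wild-type mice (adjusted p = 0.236).

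Lamb3 and Lama3, chains of the laminin that anchors epithelia, fell in injured mutants. Lamb3 was 8.99, 13.1 and 10.03 TPM in intact wild-type mice and 22.8, 26.4, 9.48 and 16.1 TPM in intact mutants. Injury values were 5.42, 2.52, 1.96 and 2.11 TPM in wild-type mice and 0.626, 3.69, 4.72, 12.3 and 7.21 TPM in mutants. The wild-type groups did not overlap, while injured mutant mouse 4 lay above intact mutant mouse 3. The change was -1.76 ± 0.48 in mutants (adjusted p = 0.0132) and -1.61 ± 0.55 in wild-type mice (adjusted p = 0.185). Lama3 was 3.35, 3.57 and 5.52 TPM in intact wild-type mice and 5.798, 5.09, 2.28 and 3.06 TPM in intact mutants. Injured discs held 1.97, 2.14, 2.50 and 1.85 TPM in wild-type mice and 0.482, 1.45, 0.342, 2.80 and 2.16 TPM in mutants. Again only the mutant groups overlapped, through injured mutant mouse 4 and intact mutant mouse 3. The change was -1.10 ± 0.32 in mutants (adjusted p = 0.0175), lost without intact mutant 1 or 2 (adjusted p = 0.0597 and 0.0574) and with only the groups compared (0.0512), and -0.71 ± 0.36 in wild-type mice (adjusted p = 0.326). The sum of 6 epidermal markers was 20.95 to 26.99 TPM in intact mice, 12.4 to 25.7 TPM in injured wild-type mice and 15.9 to 20.49 TPM in injured mutants. Of these markers 3 were tested and Krt1 fell in mutants (-0.69 ± 0.21, adjusted p = 0.0227), while Krt5 and Dsg3 stayed below 1 TPM in every library. Intact mutant mouse 3 was lowest of the intact mice for Lama3 and of the intact mutants for Lamb3. It was also low for the notochordal markers given above and lowest of the intact mice for the epidermal sum. Its Lamb3 lay above that of intact wild-type mouse 1, whose notochordal and epidermal sums were 15390 and 26.35 TPM. Injured wild-type mouse 2 had an epidermal sum of 25.7 TPM with Lamb3 at 2.52 TPM. The part of either cell type was not tested.

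Of the 5 laminin alpha chains, all were tested and Lama3 and Lama4 fell in mutants. Lama4, the alpha chain of vessels and other mesenchymal tissue, was the main alpha chain, with 79.7 ± 3.10% (SD, n = 7) of laminin alpha TPM in intact and 79.3 ± 4.46% (n = 9) in injured mice. It was 55.3, 45.9 and 39.3 TPM in intact wild-type mice and 47.2, 49.1, 32.6 and 43.0 TPM in intact mutants. After injury it measured 46.5, 40.8, 63.5 and 34.3 TPM in wild-type mice and 28.0, 34.5, 16.6, 36.4 and 26.6 TPM in mutants. The groups overlapped in both genotypes. The change was -0.61 ± 0.22 in mutants (adjusted p = 0.0461) and -0.04 ± 0.25 in wild-type mice (adjusted p = 0.951). The mutant call for Lama4 was near the threshold and was lost when any of 11 single mice was left out (adjusted p from 0.0503 to 0.122): injured mutants 1, 3 and 5, intact mutants 1, 2 and 4, all 3 intact wild-type mice, and injured wild-type mice 1 and 2. It was lost as well with median-of-ratios scaling (-0.52, adjusted p = 0.0751), without the variance trend (0.0576), without a filter on low values (0.0675) and with only the groups compared (0.064). Lama1, the alpha chain of early embryonic membranes, was 1.71, 0.925 and 2.04 TPM in intact wild-type mice and 0.765, 0.958, 0.373 and 0.586 TPM in intact mutants, and 1.41, 1.595, 0.348 and 0.411 TPM in injured wild-type mice and 0.218, 0.371, 0.0643, 0.344 and 0.231 TPM in injured mutants. Injured mutants lay below every intact mutant. It did not pass (-0.42 ± 0.24 in mutants, adjusted p = 0.202). Lama5 and Lama2 did not pass either (-0.19 and 0.28 in mutants, adjusted p = 0.677 and 0.563).

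**Figure D5:**
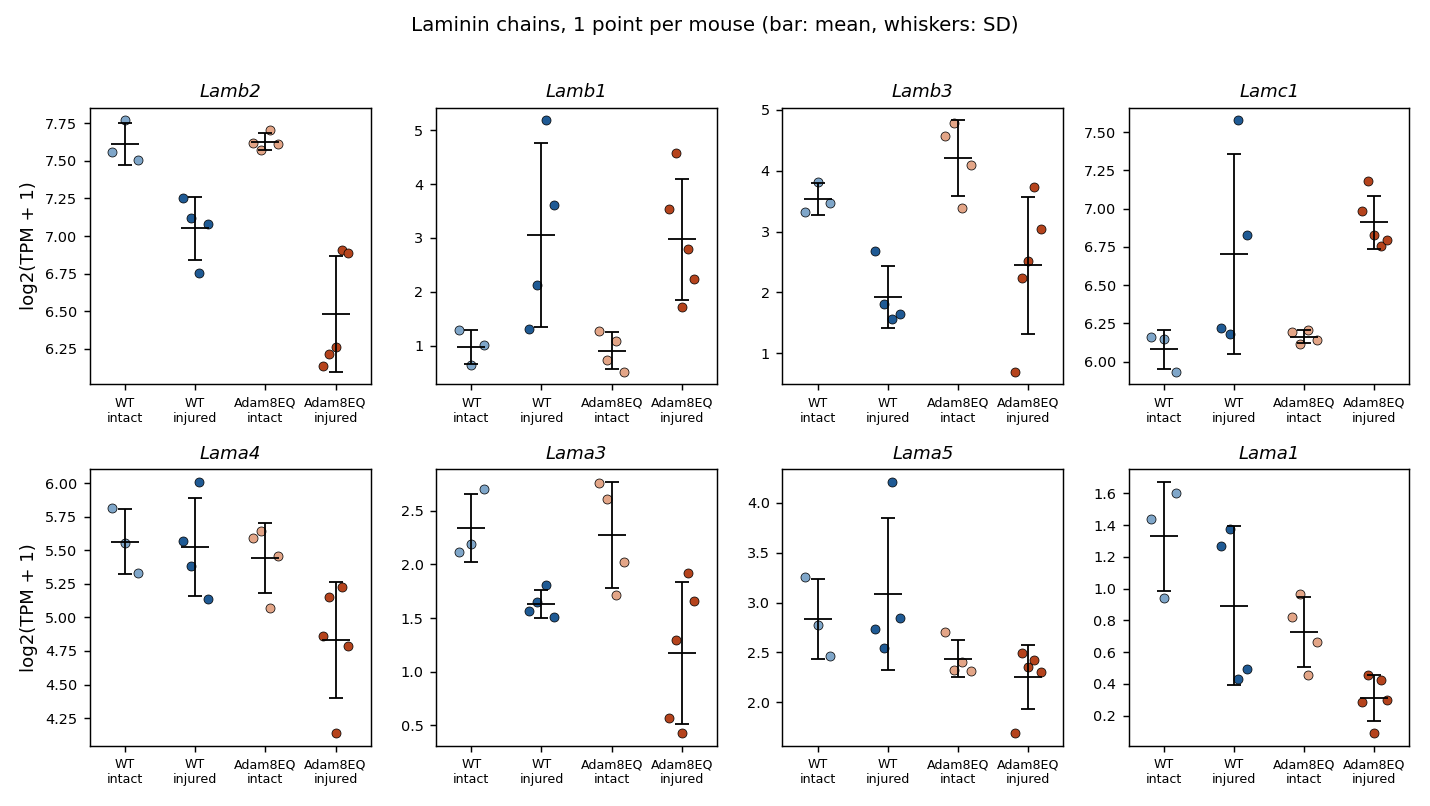
Level of 8 laminin chains as log2(TPM + 1) (vertical axis, with its own range in each panel) in the 4 groups, with 1 point per mouse, the mean as a bar and the SD as whiskers. Lamb2 lies lower and Lamb1 lies higher in every injured mouse than in any intact mouse.

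Mutants and wild-type mice were then compared directly. In intact discs 0 chains passed (0.0165% of all genes did); only Lama1 had an unadjusted p under 0.05 in limma, among 915 genes, at -0.60 ± 0.27 in mutants relative to wild-type mice. In injured discs 0 chains passed, where 0.918% of all genes did, and 10 chains had an unadjusted p under 0.05, among 4912 genes. The largest of these differences were Itga11 at -1.22 ± 0.33 (adjusted p = 0.0776), Itga5 at 0.86 ± 0.22 (adjusted p = 0.0679), Lama5 at -0.83 ± 0.30 (adjusted p = 0.148) and Itga10 at -0.80 ± 0.20 (adjusted p = 0.0651). Lama5 was 4.85 to 17.5 TPM in injured wild-type mice and 2.23 to 4.62 TPM in injured mutants; it and Itgb5 were the only chains whose injured groups did not overlap between genotypes, 2 of 33 where 4.8% of all genes did not overlap. Leaving out injured wild-type mouse 3 brought 4 of 33 chains past the threshold, Itga10 (-1.07, adjusted p = 0.0022), Itga5 (1.007, adjusted p = 0.017), Lamb2 (-0.67, adjusted p = 0.029) and Lamc1. Calls rose widely in that fit, to 2253 of 24188 genes against 222 in the main fit. Without injured mutant mouse 2 Itga5 passed (0.99, adjusted p = 0.0274), among 675 genes in all. Without injured mutant mouse 4 Lamb2 passed (-0.68, adjusted p = 0.0402), among 597 genes in all. No leukocyte chain passed between the injured groups, with differences of 1.34 ± 0.77 for Itgb2 (adjusted p = 0.347) and 1.10 ± 0.67 for Itgam (adjusted p = 0.371).

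The test of whether the injury change itself differed by genotype called 0 chains and 0% of all genes in limma, and 3 chains (Itga10, Itga11 and Lamb2) had an unadjusted p under 0.05, among 1979 genes. Their differences in injury change, mutant minus wild type, were -1.08 ± 0.30 for Itga10 (adjusted p = 0.488), -1.51 ± 0.50 for Itga11 (adjusted p = 0.503) and -0.59 ± 0.25 for Lamb2 (adjusted p = 0.564). Itga10 passed without injured wild-type mouse 3 (-1.34, adjusted p = 0.0192), among 15 genes in all. The naming of wild-type libraries cannot be told apart from their genotype in these comparisons.

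Genes that act with these chains were read from 3 lists. With injury in mutants, 13.1% of all tested genes rose and 17.7% fell, with a median change of -0.08. Of 24 genes of integrin activation and the adhesion machinery, 23 were tested, and 9 rose and 2 fell in injured mutants, with a median change of 0.29 over the list. The risers included the blood-cell kindlin Fermt3 (2.47 ± 0.56, adjusted p = 0.00537), the focal adhesion kinase relative Ptk2b (2.85 ± 0.66, adjusted p = 0.00571) and the parvins Parvg (2.47 ± 0.43, adjusted p = 0.00134) and Parvb (2.59 ± 0.47, adjusted p = 0.0018), and the others were Flna, Rap1b, Zyx, Lims1 and Itgb1bp1. Lims2 (-0.71 ± 0.22, adjusted p = 0.026) and Tln2 (-0.80 ± 0.22, adjusted p = 0.0125) fell, while talin Tln1, which switches integrins on, did not pass (0.36, adjusted p = 0.0543). Fermt3 and Parvg are made mainly by blood cells and moved beside the leukocyte markers.

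Of 11 ligands of the leukocyte integrins, 9 were tested and 4 rose in injured mutants, where 13.1% of all tested genes rose. These were Vcam1, the ligand of Itga4 chains (1.67 ± 0.60, adjusted p = 0.0478), Cdh1, the ligand of Itgae (1.27 ± 0.37, adjusted p = 0.018), and the junctional molecules F11r (2.30 ± 0.55, adjusted p = 0.00661) and Jam2 (1.601 ± 0.28, adjusted p = 0.00128). Icam1, the main ligand of Itgal and Itgam, did not pass (0.20 ± 0.35, adjusted p = 0.703). Of 20 other basement membrane and integrin ligand genes, 19 were tested, 4 rose and 8 fell, with a median change of -0.41. Among all tested genes 13.1% rose and 17.7% fell. Fibronectin Fn1, the ligand of Itga5 (1.69 ± 0.48, adjusted p = 0.0166), tenascin Tnc (4.61 ± 0.76, adjusted p = 0.00107), periostin Postn (3.80 ± 0.93, adjusted p = 0.00775) and the laminin linker Nid1 (1.74 ± 0.52, adjusted p = 0.0209) rose. The laminin-binding molecules Agrn (-1.47 ± 0.21, adjusted p = 0.000563), Bcam (-1.69 ± 0.42, adjusted p = 0.008) and Dag1 (-0.38 ± 0.11, adjusted p = 0.0175) fell, together with Fbln1, Mfge8, Npnt, Spp1 and Thbs1. Agrn was also the only gene of these 3 lists called between genotypes in injured discs, at -1.04 ± 0.21 in mutants relative to wild-type mice (adjusted p = 0.0377).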

How the data were processed

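Bulk RNA was sequenced from pooled tail discs of 16 mice. Per the labels' protocols, extraction was by Trizol, FastSelect removed ribosomal RNA and NEBNext Ultra II served for the libraries, although the molecule field reads polyA RNA. The authors deposited 1 table of TPM values, 1 column per mouse, each summing to 1000000. Per the submitters' processing notes, bcl2fastq 2.20 and the GRCm38 build were used; how reads were aligned and counted, whether by strand, and on which annotation is not given in the sources used here. Dividing low values by what 1 read is worth gave 94.1% to 94.9% within 0.05 of a whole number per library, and the implied read totals are approximations. TPM divides a fixed total, so a large rise of some transcripts lowers the rest.

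Groups came from the titles. Tests used limma 3.58.1 (R 4.3.3; lmFit, eBayes with trend) on log2(TPM + 1) for genes that reached 1 TPM in 3 or more mice, with all 16 libraries and 1 mean per group, which was tested on simulated data. Errors are between mice. Same-numbered libraries carry different mouse numbers. Every chain could be named; values for each mouse were given for the 3 chains of a class with the largest change in mutants and the most abundant one, and for a few more chosen after their values were seen. Positions came from GENCODE release M21 on GRCm38. The chains, classes, lists and markers were chosen with earlier results of these data known. Alternatives changed the pseudocount, filter, scaling, variance model, weights, groups, block, naming and single mice. None was added after the data were seen. The results of 1 tested chain enter the counts and medians but are not reported here.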

Additional observations from a re-analysis of the deposited data

Results flagged for a closer look

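In 99 sets of values (1 chain in 1 group of 4 or 5 mice), 3 held a mouse that stood apart from the rest by Dixon's test, where chance gives about 1 in 20. Itgax in intact mutant mouse 1 was 0.927 TPM against 0.0615 to 0.129 TPM in the other intact mutants, a gap of 0.897 of the whole range (critical value 0.829); 11 implied reads lie behind it. Itgb5 in intact mutant mouse 3 was 179.9 TPM against 225.8 to 230.3 TPM, a gap of 0.92 of the range. Lama5 in injured mutant mouse 1 was 2.23 TPM against 3.94 to 4.62 TPM, a gap of 0.765 of the range (critical value 0.71).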

How the results depend on the processing

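Of the 20 chains called with injury in mutants, the count stayed between 16 and 21 under other pseudocounts, filters, scalings, variance models, sample weights, use of only the groups compared and a term for naming, and between 15 and 22 when 1 mouse was left out. The 16 came with the filter at a mean of 5 TPM, which tested only 24 chains, and all 16 were among the 20. That filter called 6252 genes in all, against 7438 in the main fit. With only the M-named mutants the count of chains was 1, Lamb2, with 0 higher and 1 lower, where 725 genes in all were called. Fewer mice enter that fit. In injured discs the genotype count of 0 became 1 with the naming term (Itga5) and 2 with sample weights (Itga10 and Itga5), and ranged from 0 to 4 when 1 mouse was left out. Over all genes the calls were 222 in the main fit, 392 with the naming term and 1070 with sample weights. They ranged from 7 to 2253 when 1 mouse was left out. The leave-one-out range of the chain count was 0 to 1 for injury in wild-type mice, 0 to 1 for the interaction and 0 to 0 for genotype in intact discs.

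Some uncalled changes near 0 changed sign, and none of the 20 called changes in mutants did. In mutants Itga6 was 0.0577 with median-of-ratios scaling, 0.0223 with sample weights, and between -0.1143 and 0.0537 without 1 mouse; Itgb4 was -0.0304 and Itgb8 -0.0557 in M-named mutants alone. In wild-type mice Lama4 ranged from -0.201 to 0.0889 without 1 mouse. The cause was not tested. Itgae in mutants passed with log2(TPM + 0.1) (adjusted p = 0.0424), median-of-ratios scaling (0.0477), sample weights (0.0295) and no variance trend (0.0309), and Itgb3 with the naming term (0.0474) and only the groups compared (0.0487).

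Replicate numbers are shared between groups, and deviations of same-numbered libraries correlated between -0.217 and 0.151 over 21 pairs. These correlations showed no strong link by number but cannot exclude a shared litter or batch. With a replicate block, 18 chains were called with injury in mutants, all among the 20 (Lama4, adjusted p = 0.0974, and Lamb1, adjusted p = 0.0605, were lost), and 0 in each other comparison. Chains under about 1 TPM rest on few reads, which limits Itgam, Itgal, Itgax, Itgae and Itgad in intact discs.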
